A study of Medicago sativa with 6 samples.

Results

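Seedpod and stem of alfalfa (Medicago sativa), a tetraploid forage legume, were compared gene by gene in the genotype RegenSY27x. A gene was taken when it had 10 or more TMM CPM (counts per 1000000 of a library total scaled by the trimmed mean of M-values) in seedpod or stem and was at least 4 times higher in one of them. Of 164633 annotated genes, 18087 reached that level in either library, and 2198 of these (12.2%) were at least 4 times apart. There were 1119 genes higher in seedpod (6.19%) and 1079 higher in stem (5.97%). These counts restate how the genes were chosen and are given as a description.

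Each tissue was 1 library of pooled RNA. Per the labels' protocols, the plants were kept under 16 hours of light at 22 °C, with nights at 18 °C, and RNA from 3 replicates of a tissue was pooled before the library was made. The age is 8 weeks in the growth protocol, but the stage label reads 20 in a unit that is not clear. Genotype and growth conditions were shared by all 6 tissues (flower buds per the title of that library, called flower here, and leaf, nodules, roots, seedpod and stem), and no treatment is given. With 1 library on each side, no test of any difference was possible, and all intervals are 95% intervals of counting error only. The totals were 8735091 counts in seedpod and 8829264 in stem, and between 8568581 and 9883512 in all 6 libraries. The 100 genes with the most counts held 15.0% of the seedpod counts and 10.3% of those of stem.

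A legume pod is the ripening ovary. It holds a pod wall and the developing seeds, in which embryos lay down storage protein, starch and oil. A stem carries water and sugars through xylem and phloem and is stiffened by lignified secondary walls, and its young parts are green and grow at the tip. Gene names are absent from the deposited table, except for 1 gene named for PHO2, and the 63463 genes listed for the alfalfa assembly Bolivia_mono gave 0 matches to its identifiers. Markers of seed, pod wall, xylem or phloem therefore could not be looked up, and the labelled tissues were not checked against them. How much of the seedpod library came from seeds and how much from pod wall was not determined, and in such bulk samples fewer cells of a type cannot be told apart from less RNA per cell. The genes are described by identifier for at most 2 on each side and otherwise by position. The genome build is not given in the sources used here.

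Most genes at the minimum level were alike in both libraries. In 13415 of them (74.2%) the levels were under 2-fold apart, and the median log2 ratio of seedpod to stem was 0.07. Another 1179 genes were 2 to 4 times higher in seedpod and 1295 were 2 to 4 times higher in stem. With library totals in place of TMM scaling that median moved to -0.16, and the genes at 4-fold numbered 1051 higher in seedpod and 1400 higher in stem. Which side had more genes thus depended on the scaling.

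**Figure D1:**
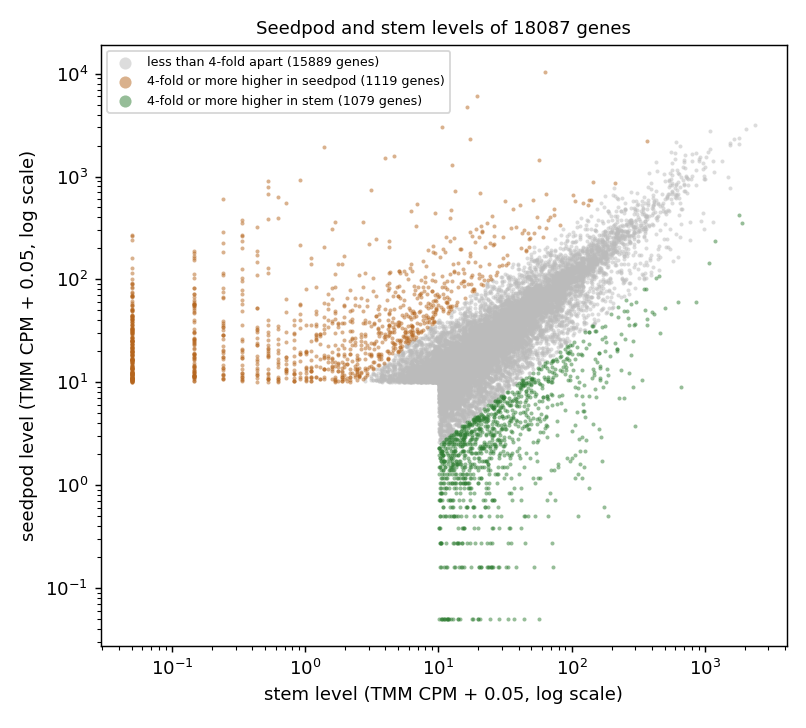
Level in seedpod (vertical axis) against stem (horizontal axis) of the 18087 genes at 10 or more TMM CPM in either library, both axes logarithmic with 0.05 added, 1 point for each gene. The 1119 genes higher in seedpod reach far to the left, where stem had few or no counts, whereas the 1079 genes higher in stem lie mostly closer to the diagonal.

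The seedpod side was the steeper and the more abundant. Its genes took 11.7% of all seedpod counts and 0.803% of the stem counts, and their median ratio was 20.1. The stem side took 6.82% of the stem counts and 0.746% of the seedpod counts, with a median ratio of 8.62. In these medians a low side with 0 counts was set to 3 counts, which makes the ratio a lower bound; 209 genes higher in seedpod had no stem count, against 28 genes higher in stem with no seedpod count. Ratios of 100 or more were reached by 222 genes on the seedpod side and by 51 on the stem side. At 100 or more TMM CPM there were 189 genes higher in seedpod and 124 higher in stem. At 1000 or more there were 11 and 4. With the lower end of each ratio's interval at 4 or more, 956 genes (5.29%) were higher in seedpod and 770 (4.26%) in stem.

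The highest TMM CPM of the seedpod side belonged mostly to long genes of 8 or 9 exons on chromosomes 3 and 8 that were also high in flower. Levels of different genes are not corrected for gene length here. MS.gene07843 on chromosome 8.3 (71887649 to 71891752, 9 exons, 2592 nucleotides of coding length) stood at 10387.5 TMM CPM in seedpod and 62.8 in stem. Its level was 12311.1 in flower, 89.7 in nodules, 51.1 in leaf and 31.6 in roots. Seedpod was 165-fold above stem (interval 153 to 179), and flower and seedpod stood apart from the other libraries. MS.gene25764 on chromosome 3.2 (71051019 to 71054566, 8 exons, 2577 nucleotides) reached 6035.5 TMM CPM in seedpod and 19.5 in stem, 309.7-fold apart (269.8 to 357). It had 4079.6 in flower, 28.1 in nodules, 19.7 in roots and 16.0 in leaf. In both genes all libraries other than flower and seedpod were below 1% of the seedpod level.

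Among the next 6 by TMM CPM, 4 had the same build. The gene at 79563840 to 79568189 on chromosome 8.1 had 4694.3 TMM CPM in seedpod, 5275.8 in flower and 16.3 in stem, a seedpod-to-stem ratio of 288 (247 to 336). The gene at 77150724 to 77154253 on chromosome 3.4 had 3018.8 in seedpod, 2763.7 in flower and 10.6 in stem (286-fold, 237 to 348). A neighbour of MS.gene07843 at 71895679 to 71900503 on chromosome 8.3 had 2329.3 in seedpod but 8327.5 in flower, and 17.4 in stem (134-fold, 116 to 156). The fourth, at 68680989 to 68684517 on chromosome 3.3, had 1599.7 in seedpod, 1370.3 in flower and 4.61 in stem (347-fold, 262 to 471). Counted over the whole seedpod side after these values had been seen, 13 genes had 8 or 9 exons and a coding length of 2500 to 2600 nucleotides, 8 of them on chromosome 8, 4 on chromosome 3 and 1 on chromosome 4. These 13 genes held 3.14% of all seedpod counts and 0.0353% of the stem counts, and 8 of them were higher in flower than in seedpod. Among all 18087 genes at the minimum level 39 had this structure, and 0 of those were among the genes higher in stem. Of all genes at that level 5.97% were higher in stem, so with 39 genes this 0 shows little. The 13 genes include haplotype copies and neighbours, described below, and are not independent.

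The remaining pair of the next 6 had other profiles. A single-exon gene on chromosome 4.3 (70185592 to 70186287, 696 nucleotides) had 2202.4 TMM CPM in seedpod and 369 in stem, a ratio of 5.97 (5.77 to 6.18). It was higher still in roots, at 4043.1, and had 1635.2 in nodules, 89.7 in flower and 65.2 in leaf. The gene at 98111335 to 98115970 on chromosome 3.4 (9 exons, 2040 nucleotides) was nearly confined to seedpod. It had 1925.9 TMM CPM there, 19.4 in leaf and 1.34 in stem, where 14 counts were found.

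The most extreme ratios came from genes with very few stem counts. By the lower end of the interval the leading gene was a single-exon gene of 354 nucleotides on chromosome 1.4 (24900409 to 24900762). It had 606 TMM CPM in seedpod and 0.192 in stem, from 5440 and 2 counts, a ratio of 3156.9 with an interval of 874 to 26074.2. The gene on chromosome 3.4 just described followed at 1433-fold (854 to 2621.6). Next came its neighbour at 98104200 to 98108128 (9 exons, 2298 nucleotides), at 1886.7-fold (808 to 5812.3). That neighbour had 906 TMM CPM in seedpod and at most 1.39 in any other library.

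A low level of recurrence bears on such folds. In the 31 genes with 1000 or more seedpod counts and under 1% of that in every other library, the stem counts summed to 0.147% of the seedpod counts. The same genes recurred in the other libraries at 0.126% to 0.236%. The 3 genes with the most extreme ratios are among these 31. For MS.gene07843 and MS.gene25764 the stem counts were 0.702% and 0.375% of the seedpod counts, above it, and neither gene is among the 31. Genes nearly confined to flower recurred in stem at 0.139%, and both of these genes were abundant in flower too. Whether the stem counts came from stem RNA was not tested.

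Stem had fewer genes at high levels, and the 4 of its side at 1000 or more TMM CPM had from 351 to 4026 nucleotides and at least 145 TMM CPM in seedpod. MS.gene76713 on chromosome 4.1 (71166483 to 71167184, 2 exons, 351 nucleotides) reached 1891.1 TMM CPM in stem and 352 in seedpod, a ratio of 5.37 (5.18 to 5.58). It had 281 in flower and 8.77, 2.44 and 2.33 in leaf, nodules and roots. The gene was thus present in the flower, seedpod and stem libraries and at low levels in the others. MS.gene55076 on chromosome 7.2 (25241906 to 25248705, 11 exons, 2391 nucleotides) stood at 1810.8 in stem and 421 in seedpod, 4.30-fold apart (4.15 to 4.45). It was found in every library, with 925 TMM CPM in flower, 519.7 in roots, 219 in leaf and 51.8 in nodules.

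Of the next 6 on the stem side, 4 had 1 or 2 exons and no more than 411 nucleotides. The gene at 75489910 to 75490645 on chromosome 4.2 (2 exons, 354 nucleotides) resembled MS.gene76713, with 1073.8 TMM CPM in stem, 145 in seedpod, 98.3 in flower and at most 3.29 elsewhere (ratio 7.40, 6.98 to 7.84). A single-exon gene of 411 nucleotides on chromosome 7.1 (19068285 to 19068695) had 862 in stem, 541 in leaf and 60.6 in seedpod (14.2-fold, 13.0 to 15.5). Of these genes it was the one with a leaf level near that of stem. A gene of 2 exons and 363 nucleotides on chromosome 8.4 (33102475 to 33103707) had 661 in stem and at most 9.03 in any other library, 73.2-fold above seedpod (58.8 to 92.3). A single-exon gene of 279 nucleotides on chromosome 6.4 (55472860 to 55473138) had 624 in stem, 60.5 in seedpod and 177 in roots (10.3-fold, 9.45 to 11.3). The other two were longer. The gene at 88487619 to 88492417 on chromosome 1.4 (3 exons, 4026 nucleotides) had 1190.1 in stem and 237 in seedpod (5.02-fold, 4.80 to 5.26), but 8195.2 in roots and 1963.9 in nodules. The gene at 88261675 to 88263346 on chromosome 7.4 (3 exons, 729 nucleotides) had 503 in stem, 52.8 in seedpod and 165 in flower (9.52-fold, 8.67 to 10.5).

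The largest ratios of the stem side, ordered by the lower end of the interval, were in genes that roots shared or that were confined to stem. A single-exon gene of 876 nucleotides on chromosome 4.3 (42202341 to 42203216) had 188 TMM CPM in stem, 104 in roots and 0.446 in seedpod, from 4 counts (421-fold, 164 to 1546.3). Another single-exon gene, of 810 nucleotides on chromosome 2.3 (7883212 to 7884021), had 57.2 in stem and 123 in roots, while seedpod had no count. Against the floor of 3 counts in the seedpod library, stem was at least 171-fold higher, and the interval of the ratio began at 139. The gene of 2 exons and 363 nucleotides on chromosome 8.3 (32448525 to 32449873) had 174 in stem and at most 1.89 elsewhere, 313-fold above the 5 seedpod counts (134 to 964.9). In stem only 1 gene met the definition used above for recurrence, and its seedpod counts were 0.345% of its 1160 stem counts.

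Flower and leaf did not enter the choice of the genes. Flower stood between the sides, and leaf was low on both of them. For the 1119 genes higher in seedpod the median level was 29.97 TMM CPM in seedpod, 3.38 in flower, 1.54 in stem and 0.418 in leaf. For the 1079 genes higher in stem it was 24.0 in stem, 6.46 in flower, 2.79 in seedpod and 2.51 in leaf. Over all 18087 genes at the minimum level, the medians were 17.6 in flower and 14.5 in leaf. Nodules and roots had medians of 0.733 and 0.849 for the seedpod side and 3.67 and 8.70 for the stem side, against 15.3 and 16.3 over all these genes. Every library outside the high side was thus below its median over all these genes, and leaf was the lowest on both sides. Flower had no count for 145 of the seedpod-side genes (13.0%), and leaf had none for 287 (25.6%). On the stem side these numbers were 15 (1.39%) and 80 (7.41%).

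**Figure D2:**
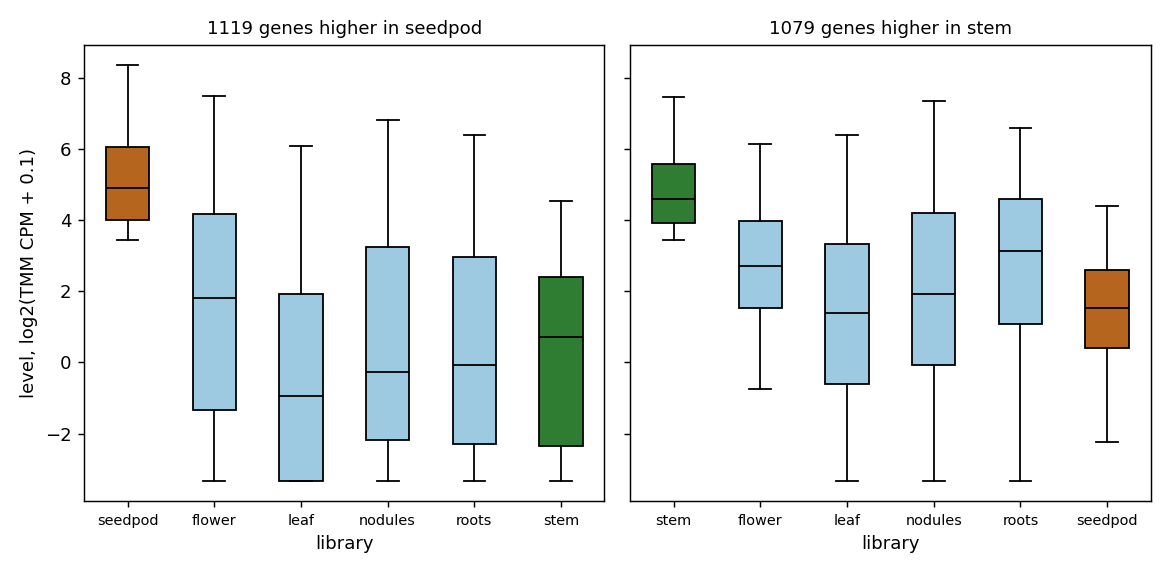
Levels, as log2(TMM CPM + 0.1), of the 1119 genes higher in seedpod (left) and the 1079 genes higher in stem (right) in all 6 libraries. Boxes span the quartiles with the median as a line, and whiskers run from the 5th to the 95th percentile of genes. Leaf has the lowest median in both panels, and on the stem side roots have the highest median after stem.

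Each gene was also placed by whether flower or leaf lay nearer to the high or to the low side, with the geometric mean of the seedpod and stem levels as the border. Flower lay nearer to seedpod for 391 of the 1119 seedpod-side genes (34.9%) and nearer to stem for 395 of the 1079 stem-side genes (36.6%). Leaf lay nearer to seedpod for 153 (13.7%) and nearer to stem for 261 (24.2%). Among the genes that were less than 4 times apart, the shares were 39.2% and 46.2% for flower and 41.8% and 42.2% for leaf, in the same order. The leaf shares of the genes that differed were below those of the rest on both sides, and the flower shares were closer to theirs. However, the border lies close to both levels in genes less than 4 times apart and well below the high side in the others. The shares are thus unlike measures, and nothing is concluded from the gap. No test was made, since genes are not replicates. Flower was above seedpod itself for 154 seedpod-side genes and above stem for 75 stem-side genes. Leaf was above seedpod for 86 and above stem for 111.

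Placed by flower and leaf at once, the largest class on both sides was low in both. Flower and leaf each lay nearer to the low side for most genes, so a large class of this kind follows in part from that. The classes were not counted over the genes less than 4 times apart, and their shares are a description only. On the seedpod side 637 genes (56.9%) had flower and leaf near stem. Their median ratio was 36.0, and their median levels were 30.9 TMM CPM in seedpod, 0.768 in stem, 0.695 in flower and 0.139 in leaf. The single-exon gene on chromosome 4.3 at 2202.4 TMM CPM had the highest level of this class. Another 329 genes (29.4%) had flower near seedpod and leaf near stem, with medians of 31.8 in seedpod, 28.5 in flower, 2.11 in stem and 0.557 in leaf, and MS.gene07843 led them. Nodules were near seedpod for 25.5% of these genes and roots for 24.9%. Genes with leaf near seedpod and flower near stem numbered 91 (8.13%), and nodules were near seedpod for 51.6% of them. Their leading gene, on chromosome 5.2 (72194296 to 72194940, 2 exons, 525 nucleotides), had 4299.96 in leaf, 597.6 in seedpod, 97.4 in flower and 50.9 in stem. In the remaining 62 genes (5.54%) both flower and leaf were near seedpod. Of these the gene on chromosome 6.1 (7099571 to 7100631, 2 exons, 813 nucleotides) was the highest, with 357 in seedpod, 309 in flower, 456 in leaf and 22.9 in stem.

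On the stem side 515 genes (47.7%) had flower and leaf near seedpod, with MS.gene76713 the highest. Their medians were 25.2 TMM CPM in stem, 3.67 in flower, 3.01 in seedpod and 1.11 in leaf. The class with flower near stem and leaf near seedpod held 303 genes (28.1%), led by MS.gene55076, with medians of 24.7 in stem, 16.3 in flower and 2.56 in seedpod. Roots were near stem for 46.2% of it and nodules for 26.1%. The class with leaf near stem and flower near seedpod was larger than its counterpart on the seedpod side, at 169 genes (15.7%), and the 411-nucleotide gene on chromosome 7.1 led it. In that class the medians of nodules and roots were high as well, at 18.3 and 15.8. The 92 genes (8.53%) with both near stem were led by a gene of 3 exons and 237 nucleotides on chromosome 4.4 (37787384 to 37788261). It had 248 in stem, 172 in flower, 111 in leaf and 49.1 in seedpod, and 191 and 186 in nodules and roots, so that seedpod was the lowest of the 6 libraries.

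Roots and nodules were placed in the same way. Roots lay nearer to stem for 529 stem-side genes (49.0%), and nearer to seedpod for 229 seedpod-side genes (20.5%). Among the genes less than 4 times apart these shares were 42.5% and 39.0%. As with flower and leaf, the border has another meaning in those genes, so nothing is concluded from the gap for roots or nodules. Nodules lay with stem for 386 (35.8%) and with seedpod for 268 (24.0%), below the 41.1% and 39.5% of the genes less than 4 times apart. The median root level was 8.70 TMM CPM for stem-side genes and 0.849 for seedpod-side genes. Seedpod was the highest of all 6 libraries for 804 of the 1119 seedpod-side genes, followed by flower for 127, leaf for 74, nodules for 60 and roots for 54. Stem was the highest for 671 of the 1079 stem-side genes, followed by nodules for 149, roots for 120, leaf for 72 and flower for 67. At 4 times or more above every other library, 510 genes belonged to seedpod and 175 to stem. At 10 times there were 333 and 39. By the rule, stem could not be the highest on the seedpod side, nor seedpod on the stem side. These numbers thus follow in part from how the genes were chosen. The highest library was not counted over all genes at the minimum level. Whether the numbers of the sides differ beyond the spread between plants was not tested.

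Genes on either side had fewer exons than the rest. The median was 3 exons on both sides against 5 for all genes at the minimum level, and single-exon genes made up 22.2% of the seedpod side and 21.7% of the stem side against 13.9%. Genes of 10 or more exons made up 10.5% and 11.2% against 24.0%. The median coding length was 1113 nucleotides on the seedpod side and 1092 on the stem side, against 1278. Gene spans were shorter as well, with medians of 2312 and 2109 nucleotides against 3424. Among genes with introns the summed intron length had medians of 1486 and 1449 nucleotides against 2420. The sides were close to each other in each of these measures.

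Genes with many exons differed in smaller shares on both sides. Of 2517 single-exon genes, 9.85% were higher in seedpod and 9.30% higher in stem. Of 4339 genes with 10 or more exons, the shares were 2.72% and 2.79%. With level the sides parted. From 10 to 20 TMM CPM in the higher of both libraries, 5.27% of genes were higher in seedpod and 5.96% in stem. From 200 to 1000 the shares were 13.1% and 5.71%, and at 1000 or more 11 of 67 genes (16.4%) were higher in seedpod and 4 (5.97%) in stem. Among those 11 are copies of MS.gene07843 on chromosome 8.1 and of MS.gene25764 on chromosomes 3.1 and 3.3. Copies, described below, are not independent, so the top class holds fewer separate genes than its count. The exon pattern was present within both ranges of level on the stem side, at 9.37% of single-exon and 5.43% of other genes from 10 to 50 TMM CPM, and at 9.06% and 5.43% from 50 upward. On the seedpod side it was 9.21% and 4.90% in the lower range and 11.9% and 7.79% in the upper.

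**Figure D3:**
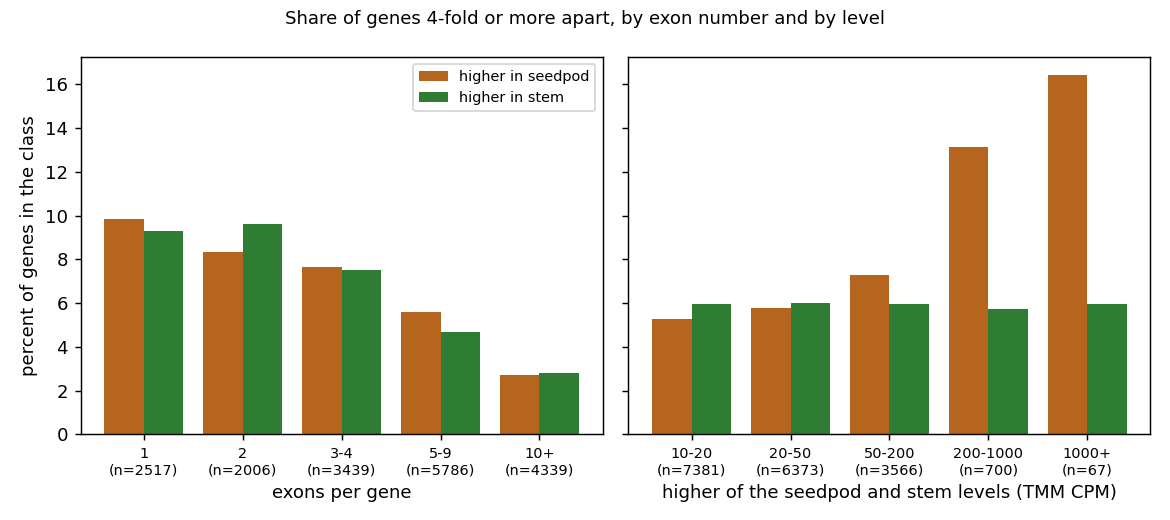
Percent of genes 4 times or more higher in seedpod or in stem, by exons per gene (left) and by the higher of the seedpod and stem levels in TMM CPM (right), with the number of genes in each class under the axis. Both sides fall from over 9% of single-exon genes to under 3% of genes with 10 or more exons, whereas with level the seedpod share climbs to 16.4% and the stem share stays near 6%. Some seedpod-side genes of the top level class are haplotype copies of one another.

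Abundant stem genes were short. Of the 124 stem-side genes at 100 or more TMM CPM, 28.2% had a coding length under 450 nucleotides and the median was 823.5. Of the 189 seedpod-side genes at that level, 8.47% were so short and the median was 1095. Over all 1959 genes at 100 or more TMM CPM in either library, 10.2% were under 450 nucleotides and the median was 1197. The abundant genes of stem thus stood apart in length and those of seedpod less so. TMM CPM is not corrected for length.

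Alfalfa carries 4 haplotypes of each of 8 chromosomes, and the annotation lists them separately. Genes of 3 or more exons whose exon lengths were identical in order, and which lay on different haplotypes of 1 chromosome number, were treated as copies of one another. Their sequences were not compared, and how the counting split reads between near-identical copies is uncertain, so copies are not independent. A copy was found for 424 seedpod-side genes (37.9%) and 377 stem-side genes (34.9%), against 46.2% of all genes at the minimum level. Genes with fewer than 3 exons count in these shares but could not have a copy by this definition. Single-exon genes alone made up 22.2% of the seedpod side and 21.7% of the stem side, against 13.9%. The lower shares of the sides therefore do not show that their genes lack copies.

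Copies did not go in opposite directions at this threshold. The 424 seedpod-side genes had 1172 other copies, counted once for each partner, of which 460 (39.2%) were also called higher in seedpod and 0 higher in stem. A further 59 were at the minimum level but not called, and 55 of those were still higher in seedpod. The other 653 (55.7%) were below 10 TMM CPM in both libraries. The 377 stem-side genes had 838 other copies, of which 294 (35.1%) were called on the stem side, 0 on the seedpod side, 75 not called and 469 below the level. Among copies at the minimum level, 88.6% on the seedpod side and 79.7% on the stem side were thus called on the same side. For uncalled genes with copies, 0.818% of the copies at that level were higher in seedpod and 1.04% higher in stem. Distinct copies below the level with at least 20 counts in seedpod and stem together numbered 141 and 163, and 133 and 160 of them lay in the direction of their called partner.

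Copies of a set differed in level. In the 68 sets with 1 copy on each of the 4 haplotypes and at least 1 called in seedpod, the highest copy held a median of 61.4% of the summed seedpod level. In the 59 such sets of the stem side it held 62.0% of the summed stem level. Exactly 1 copy was called in 31 seedpod sets and 38 stem sets, and all 4 in 7 and 5. Where all 4 copies reached the minimum level, all 4 were called in 7 of 9 seedpod sets and in 5 of 8 stem sets. Between copies at the minimum level, the largest ratio of seedpod to stem was a median of 1.69 times the smallest on the seedpod side and 2.02 times on the stem side. When the counts of each set were summed, 273 of 6097 sets at the minimum level (4.48%) were higher in seedpod and 273 higher in stem.

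**Figure D4:**
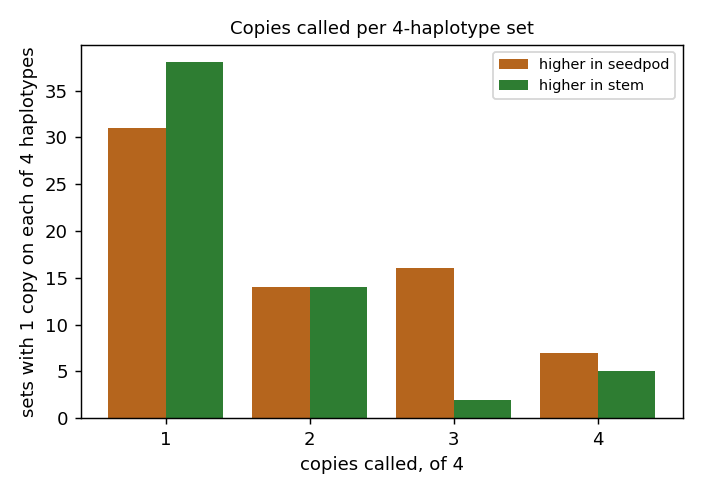
Number of sets with 1 copy on each of the 4 haplotypes (vertical axis) by how many of the 4 copies were at least 4 times apart (horizontal axis), for the 68 seedpod sets and the 59 stem sets. Sets with 1 called copy are the most frequent on both sides, at 31 and 38.

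The seedpod sets with the highest summed level and at least 3 called copies show both cases, shared with flower and confined to seedpod. The copies of MS.gene07843 on chromosomes 8.1, 8.3 and 8.4 had 4694.3, 10387.5 and 96.9 TMM CPM in seedpod, and 5275.8, 12311.1 and 105 in flower. The copy on chromosome 8.4 lies at 74116866 to 74121302 and had 3 stem counts. Although their levels spanned 2 orders of magnitude, seedpod and flower led in all 3. The copies of MS.gene25764 on chromosomes 3.1, 3.2 and 3.3 had 1512.8, 6035.5 and 1599.7 in seedpod, and 3.94, 19.5 and 4.61 in stem. The third set, of 3 exons and 1062 nucleotides on chromosome 1, had 1 copy on each haplotype. These had 796, 375, 933 and 392 TMM CPM in seedpod on chromosomes 1.1 (18911801 to 18914870), 1.2 (18666009 to 18668193), 1.3 (18829591 to 18831802) and 1.4 (18795681 to 18797837). No other library reached more than 2.20 in any of the 4. Summed over the set, seedpod was 1130.5-fold above stem (753 to 1783.7), from stem counts that were 0.103% of those of seedpod. All 4 copies are among the 31 genes nearly confined to seedpod.

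The stem sets chosen in the same way all had flower as the next or nearly equal library. A set of 4 exons and 330 nucleotides on chromosome 7 had stem levels of 427, 26.2, 55.6 and 359 TMM CPM on haplotypes 7.1 to 7.4, and flower levels of 379, 23.5, 45.8 and 366. Seedpod had 103, 3.45, 5.57 and 81.0, so that the summed ratio of stem to seedpod was 4.50 (4.28 to 4.74). Summed over the 4 copies, flower stood at 814 and stem at 868. A set of 3 exons and 729 nucleotides, also on chromosome 7, had 41.3, 163, 43.8 and 503 in stem and 16.7, 55.4, 16.3 and 165 in flower, with a summed ratio of 10.1 (9.33 to 10.95). The third set, of 4 exons and 882 nucleotides with copies on chromosomes 6.1, 6.2 and 6.3, had 246, 127 and 271 in stem. It had 24.8, 13.6 and 29.9 in flower and 7.02, 4.57 and 12.4 in seedpod, a summed ratio of 26.9 (23.5 to 30.9). Within each set the order of the libraries from stem to flower to seedpod was the same in every copy, apart from the copy on chromosome 7.4 of the first set, where flower at 366 was above stem at 359.

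**Figure D5:**
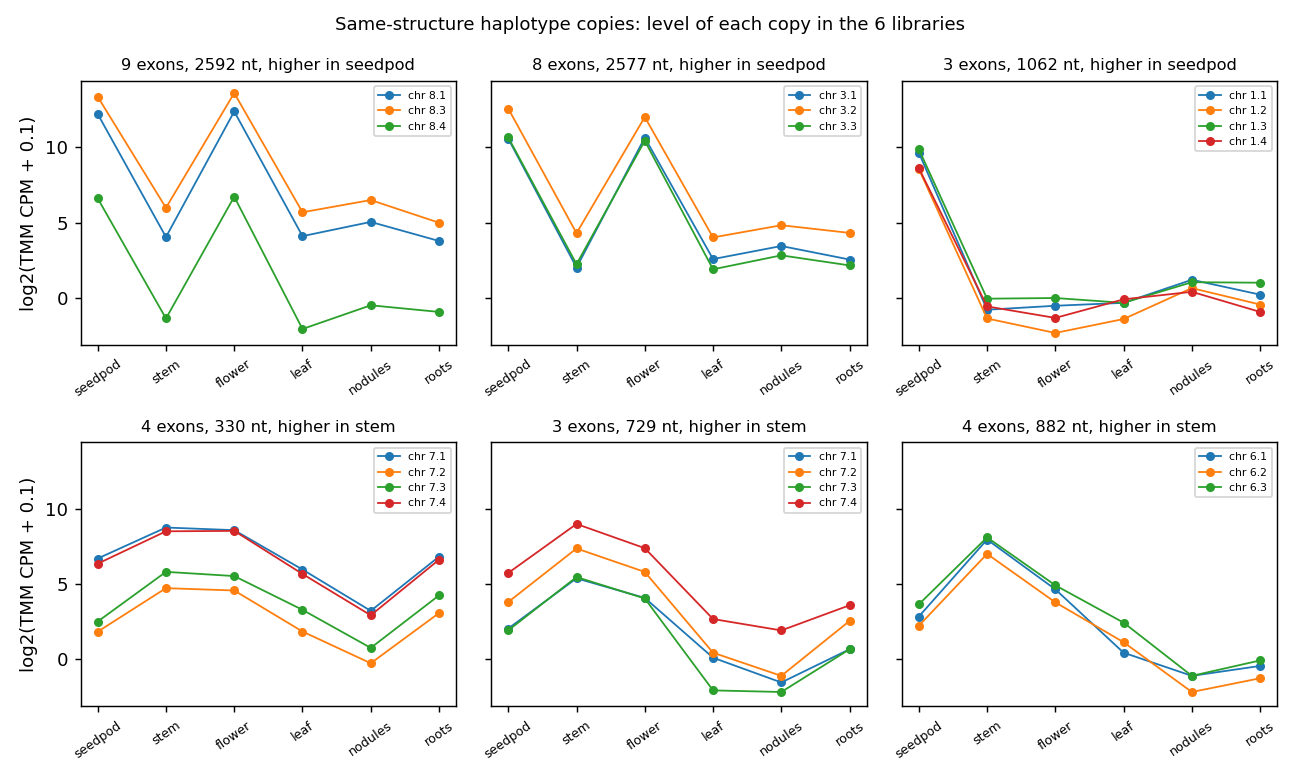
Level, as log2(TMM CPM + 0.1), of each copy in the 6 libraries for the 3 seedpod sets (top) and the 3 stem sets (bottom) with the highest summed level, 1 line for each copy named by its chromosome and haplotype. Lines of a set run in parallel at different heights, for instance at 10387.5, 4694.3 and 96.9 TMM CPM in seedpod for the 9-exon set.

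By position, both sides were spread over all 8 chromosomes. The share of genes at the minimum level that were higher in seedpod was highest on chromosome 2, at 8.68%, and lowest on chromosome 1, at 4.62%. On the 4 haplotypes of chromosome 2 it was 9.19%, 9.09%, 8.47% and 8.04%. Because haplotypes hold copies that are not independent, these values do not repeat one another as separate evidence. For stem the share ran from 4.89% on chromosome 3 to 7.30% on chromosome 7. Some called genes were neighbours: 148 of 1107 seedpod-side genes on chromosomes (13.4%) and 105 of 1074 stem-side genes (9.78%) lay beside another gene of their own side with no annotated gene between them. The share to be met by gene order alone was not worked out, so these shares are a description only. No annotated genes overlapped in span.

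The longest run was 4 genes of 9 exons on the same strand of chromosome 8.3 (71819912 to 71900503), which includes MS.gene07843. Their coding lengths were 2592 to 2598 nucleotides, but their profiles differed. From low to high position the seedpod levels were 586, 167, 10387.5 and 2329.3 TMM CPM, and the flower levels were 3933.1, 98.0, 12311.1 and 8327.5. The gene at 71825073 to 71830329 had 1185.4 in nodules and 856 in roots, where its neighbours had at most 162 and 31.6. All 4 were higher in seedpod than in stem, by 4.34-fold to 165-fold, yet 1 of them was a gene of nodules and roots by level. A second run, of 3 genes with 1 or 2 exons on chromosome 5.4 (35887645 to 35909981), had 11.6, 30.6 and 28.6 in seedpod and at most 0.384 in stem, with roots next at 6.26, 11.2 and 9.34. In this run the stem values rested on 2 to 4 counts.

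The longest runs of the stem side held 3 genes each. There were 5 of them, of which 2 are described. Single-exon genes of 561, 564 and 795 nucleotides on chromosome 3.3 (4433472 to 4478036) had 25.8, 214 and 33.9 TMM CPM in stem and 5.57, 23.8 and 0.334 in seedpod. Genes of 7 or 8 exons and 1941 to 2025 nucleotides on chromosome 1.2 (57929978 to 57962092) had 72.6, 136 and 43.8 in stem and 0.111, 7.35 and 0 in seedpod. For the gene of this run with no seedpod count stem was at least 131-fold higher, against the floor of 3 counts in the seedpod library, and the interval of the ratio began at 106. All 6 genes of the 2 runs described had levels in flower between those of stem and seedpod. The other runs of this length were not looked at for this.

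The border of 4-fold was not a gap. At 100 or more TMM CPM the genes just inside it on the seedpod side had ratios of 4.02 (3.83 to 4.22), on chromosome 8.3 at 37178355 to 37181478, and 4.03 (3.79 to 4.28), on chromosome 5.1 at 66593411 to 66593812. Those just outside had 3.94 (3.51 to 4.43) and 3.91 (3.55 to 4.30). On the stem side the nearest genes inside had 4.02 each (3.67 to 4.41 and 3.56 to 4.56) and those outside 3.98 each (3.55 to 4.48 and 3.53 to 4.51). Counting error alone could place any of these 8 genes on either side of the limit. One gene just inside on the stem side, on chromosome 3.3 at 13601271 to 13601654, had 255 TMM CPM in stem and 63.3 in seedpod but 1661.1 in flower.

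The series is named for PHO2, an enzyme of the ubiquitin pathway that holds back phosphate uptake by roots and loading to the shoot. MS.genePho2-1d met the rule narrowly, with 36.4 TMM CPM in seedpod and 8.83 in stem, a ratio of 4.13 (3.26 to 5.26). Seedpod was not its highest library: it had 107 in roots, 78.6 in leaf, 37.3 in nodules and 14.1 in flower. The copies on chromosomes 2.1, 2.2 and 2.3, which share the lengths of exons 2 to 7, were also higher in seedpod, by 2.38-fold (1.90 to 2.996), 2.77-fold (2.21 to 3.50) and 3.28-fold (2.28 to 4.81), and did not meet it. These genes were picked out after their values had been seen.

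Set beside the other pairs of tissues under the same rule, seedpod and stem were the pair with the smallest share of genes that differed. The share was 12.2% here, 13.7% both for flower with stem and for flower with seedpod, and from 23.1% to 44.7% for the other 12 pairs. These pairs share libraries, each difference rests on 1 library a side, and the gap between 12.2% and 13.7% was not tested.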

How the data were processed

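The authors deposited raw counts per gene for 6 libraries, with exon positions and strand, per the file headers. The summed exon length is the authors' own value, another quantity than a count, and it is called coding length because 95.6% of the sums divide by 3. Per the submitters' processing notes, edgeR, featureCounts, FastQC and Trimmomatic were used, with no version. Not given in the sources used here are the strand setting, the aligner, the build of the genome and what was done with reads of several places.

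Counts of the 164633 genes were divided by library totals times TMM factors over all genes and 6 libraries (edgeR 4.0.16, R 4.3.3) and multiplied by 1000000. The rest was done in Python 3.11.15 (scipy 1.17.1, numpy 2.4.6, matplotlib 3.10.9, pandas 2.3.3). The minimum was 10 TMM CPM, the fold 4, and 0 counts on the low side were set to 3 counts. Intervals of levels are exact Poisson, those of ratios exact conditional binomial (Clopper-Pearson), both at 95%. Reads here carry no molecular identifiers and are not independent molecules, so intervals cover counting error only. The scaling and the calling were tried on simulated Poisson counts. These held fewer changed genes than found here and no spread between plants. They check the computation and do not bear on whether the calls would hold in other plants. Alternatives were DESeq2 1.42.0 size factors, library totals, other filters, levels and folds, and other definitions of copies.

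Genes named by identifier were the 2 with the highest TMM CPM on each side. Those given by position were the next 6, the 3 highest lower ends of the ratio interval and the leader of each flower and leaf class. The 3 highest sets of copies, 2 of the longest runs of each side and the genes beside the limit were also given so. Genes, rules and definitions were chosen with earlier results of these data known.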

Additional observations from a re-analysis of the deposited data

How the results depend on the processing

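The direction of each of the 4 genes given by identifier was the same under every scaling tried. Library totals gave 144 for MS.gene07843, 269.7 for MS.gene25764, 6.17 for MS.gene76713 and 4.94 for MS.gene55076. The log2 of scaled totals, stem over seedpod, ran only from 0.015 with library totals to 0.244 with DESeq2. Genes over 4-fold apart could therefore not change direction, and this sameness checks nothing. Of 142 values recomputed, 27 moved beyond the counting interval, or for a count of genes beyond 1.5 times. DESeq2 size factors, TMM over genes with 10 or more counts and 1 count added to both sides moved none of them. TMM over seedpod and stem alone could not move any. It gave the same ratio of scaled library totals, a log2 of 0.215 for stem over seedpod, as TMM over all 6 libraries. Its values are counted among the 142 but check nothing. The number of genes changed mainly with the rule: at 5 TMM CPM it was 1706 higher in seedpod and 1691 in stem, at 20 TMM CPM 730 and 639, at 2-fold 2298 and 2374, and at 8-fold 799 and 580. With copies of the same structure counted once, 968 were higher in seedpod and 975 in stem. The share of genes with leaf near the high side was 11.6% for seedpod and 20.4% for stem with library totals, 19.7% and 28.0% at 2-fold, and 11.6% for seedpod at 8-fold, where flower lay near stem for 41.0%. The median coding length was 1197 and 1164 nucleotides at 2-fold, and for stem 1011 at 20 TMM CPM, 1017 at 8-fold and 1030.5 with the lower end of the interval at 4 or more. Other copies of seedpod-side genes called on that side were 35.6% with sets of 2 or more exons, 35.2% with 5 or more, 34.6% at 20 TMM CPM and 42.6% at 8-fold, and those of stem-side genes 38.9% at 8-fold. The cause of these shifts was not tested. No paired analysis was possible because each tissue had 1 pooled library, and for the same reason no library could be left out. Low sides with few counts limit the ratios: 476 seedpod-side and 226 stem-side genes had under 10 counts on the low side.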
